A study of Mus musculus with 6 samples.

Results

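The genes that make cholesterol and fatty acids were followed in the whole brain of newborn mice of both sexes, 4 days after an injection of testosterone propionate (TP) or of oil. The members were chosen by pathway, not by measured values: the enzymes of the mevalonate and sterol pathways, the proteins that regulate them, and genes of sterol transport and of fatty acid synthesis. Of 31 listed genes, 29 had at least 1 probe set paired with that gene alone, out of 18193 genes on the array. Acat2 and Soat1 were not analysed here. The 29 genes were read by 62 probe sets, out of 34945 single-gene probe sets and 45037 probe sets tested. By role they were 6 genes of the mevalonate pathway, 11 of the sterol pathway, 5 regulators, 3 genes of sterol transport and 4 of fatty acid synthesis.

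All mice were C57BL/6, were injected intraperitoneally on postnatal day 2 and gave whole brain on postnatal day 6. The treated groups received 1 mg of TP, a testosterone ester, in 20 µL of sesame oil, and the vehicle groups received sesame oil only, so no group was left without an injection. There were 2 arrays of female TP, 2 of female vehicle, 1 of male TP and 1 of male vehicle, and each held RNA pooled from 6 mice. The labels call the second female array of each treatment a replica without saying whether it came from another pool, so p-values measure only the spread between these arrays, which may be technical. In whole tissue, fewer cells of a type and less RNA per cell cannot be told apart. Values are deposited log2 expression values, in which a difference of 1 is a doubling. They allow comparison of a probe set across arrays but not of levels between genes.

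Cholesterol synthesis starts from acetyl-CoA, passes through mevalonate and isoprenoid units to squalene, and ends with a series of steps that turn the first sterol, lanosterol, into cholesterol. The genes of these steps share a control: the transcription factors SREBP-1 and SREBP-2 are held in the endoplasmic reticulum by INSIG proteins while sterols are plentiful, and are escorted by SCAP to the Golgi, cut and sent to the nucleus when sterols run low. The brain makes its own cholesterol because lipoproteins do not cross the blood-brain barrier, and demand is high after birth as glia multiply and myelin begins to form.

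The labels were first set against the data. Xist, the RNA of the inactive X chromosome, lay between 12.61 and 12.83 on the female arrays and at 5.29 on the male vehicle array, but at 10.45 on the array labelled male TP. The Y-linked Eif2s3y lay at 9.16 on the male vehicle array and 9.12 on the male TP array, with no female array above 3.09, so the male TP array carried both a Y-linked transcript and much Xist. Results that rest on that array are given with and without it. All 8 neuron and all 8 astrocyte markers lay above the dim level (the 40th percentile of mean values over probe sets, at 4.98), so the markers of brain were present. Array medians lay between 5.69 and 5.74.

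The stretch before the start site was examined first because it carries the elements through which the pathway is known to be controlled together. RefSeq windows of 250 bases upstream (GRCm38.p6) were at hand for 22 of the 29 genes, 14 of them enzymes. The searched motifs were the sterol regulatory element TCACNCCAC, bound by SREBPs, the CCAAT box CCAAT, bound by NF-Y, and the GC box GGGCGG, bound by Sp1, each on both strands. The windows of 4 genes whose expression values are described later are shown, with every motif letter in capitals: Hmgcs1 (chr13:119690101-119690350, plus strand), which opens the mevalonate pathway, Idi1 (chr13:8885356-8885605, plus strand), Msmo1 (chr8:64733579-64733828, minus strand) and the regulator Insig1 (chr5:28071162-28071411, plus strand).
Hmgcs1: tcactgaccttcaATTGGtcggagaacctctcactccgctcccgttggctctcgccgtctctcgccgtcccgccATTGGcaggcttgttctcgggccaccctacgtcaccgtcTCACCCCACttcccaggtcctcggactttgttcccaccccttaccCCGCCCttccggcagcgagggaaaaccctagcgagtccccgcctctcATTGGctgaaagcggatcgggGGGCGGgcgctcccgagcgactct
Idi1: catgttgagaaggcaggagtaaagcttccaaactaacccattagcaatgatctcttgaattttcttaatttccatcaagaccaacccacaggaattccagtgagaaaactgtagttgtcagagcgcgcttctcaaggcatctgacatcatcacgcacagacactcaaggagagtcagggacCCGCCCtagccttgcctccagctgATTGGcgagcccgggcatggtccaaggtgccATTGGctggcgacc
Msmo1: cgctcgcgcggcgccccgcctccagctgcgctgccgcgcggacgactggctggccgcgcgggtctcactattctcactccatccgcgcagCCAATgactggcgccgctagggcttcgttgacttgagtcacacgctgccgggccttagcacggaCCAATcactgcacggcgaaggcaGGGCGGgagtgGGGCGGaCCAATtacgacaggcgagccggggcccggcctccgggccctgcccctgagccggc
Insig1: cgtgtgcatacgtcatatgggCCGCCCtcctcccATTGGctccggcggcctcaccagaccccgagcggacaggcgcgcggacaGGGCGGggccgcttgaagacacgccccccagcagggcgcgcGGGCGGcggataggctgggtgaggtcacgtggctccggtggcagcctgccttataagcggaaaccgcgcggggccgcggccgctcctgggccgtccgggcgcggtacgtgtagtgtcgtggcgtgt
In Hmgcs1 the 3 CCAAT boxes all lie on the opposite strand, reading ATTGG here, and the sterol regulatory element begins 137 bases before the start. Idi1 has 2 CCAAT boxes on the opposite strand, Msmo1 has 3 on the strand of the gene, and Insig1 has 1 on the opposite strand.

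Some genes, 5 of the members among them, had more than 1 window, and a match in any window of a gene counted. On that count a CCAAT box was present in 14 of 14 enzyme genes with a window and in 19 of 22 members. Pmvk and Dhcr7 also had windows without one. Among the array's genes with a window 39.4% had one, and among genes at least as bright as the dimmest member 40.8%. A GC box was present in 13 of 14 enzymes and 19 of 22 members, against 53.4% of the array's genes and 67.3% of the bright ones. The sterol regulatory element in this spelling was found in 1 of 22 members, Hmgcs1, against 1.27% of the array's genes. Matches of the 3 motifs overlapped each other only in Fasn, where CCAAT boxes on both strands shared 2 bases. These counts describe letters in a fixed window, and no test was run on them.

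No member passed the test for TP against vehicle. Over both sexes, with sex in the model, 0 of the 62 probe sets had an adjusted p under 0.05 in limma, where 0.00888% of all probe sets passed. At an unadjusted p under 0.05 4 member probe sets were higher and 3 lower, against 5.98% and 6.28% of all probe sets, so the members' share lay near the background. With the brightest probe set standing for each gene, Lss and Stard4 (2 of 29 genes) had every TP array above every vehicle array and Srebf1, Srebf2 and Acaca (3 of 29) had every one below, against 4.69% and 10.3% of all genes. The medians of the TP difference were -0.01 for the 17 enzymes and -0.02 for all 29 members, beside -0.03 for all genes and -0.02 for genes at least as bright as the dimmest member. By role, the medians were 0.05 for the mevalonate genes, -0.02 for the sterol genes, -0.08 for the regulators, 0.01 for transport and -0.03 for fatty acid synthesis.

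**Figure D1:**
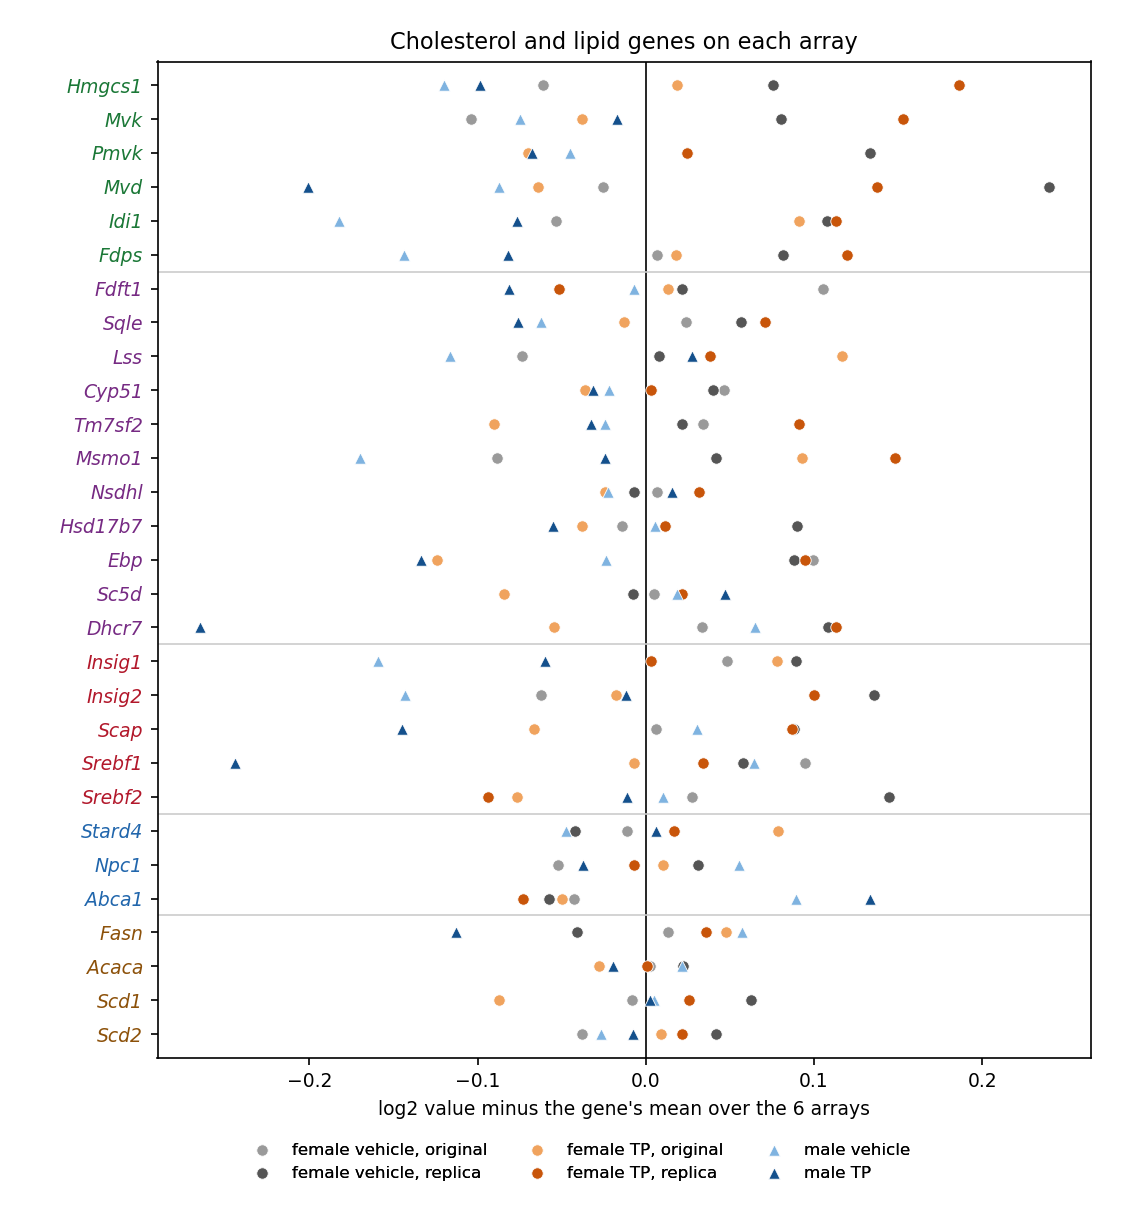
Log2 expression of each of the 29 genes on each of the 6 arrays, shown as the difference from the gene's mean over the 6 arrays. Idi1, Fdps, Hmgcs1, Mvd, Sqle and Insig1 are lower on both male arrays than on every female array, and Abca1 is higher on both.

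Of the mevalonate genes, Idi1 and Pmvk had the smallest p for TP. Idi1, which makes dimethylallyl pyrophosphate from its isomer, measured 10.35 and 10.51 in female vehicle, 10.49 and 10.52 in female TP, 10.22 in male vehicle and 10.33 in male TP. The TP arrays lay on the upper side within each sex, but the female groups overlapped, and the difference was 0.09 (SE 0.07, adjusted p = 0.648). Pmvk, which adds the second phosphate to mevalonate, measured 9.44 and 9.55 in female vehicle, 9.34 and 9.44 in female TP, 9.37 in male vehicle and 9.35 in male TP. The lower vehicle array and the higher TP array of the females lay level, so the groups overlapped, and its difference was -0.08 (SE 0.07, adjusted p = 0.688).
The other genes of this group included Hmgcs1 (HMG-CoA synthase) at 0.07 and Mvk (mevalonate kinase) at 0.07. The rest were Mvd (mevalonate pyrophosphate decarboxylase) at -0.08 and Fdps (farnesyl pyrophosphate synthase) at 0.04. On these brightest probe sets, the TP and vehicle arrays of all 4 overlapped. Other probe sets did not overlap: 1433444_at and 1433445_x_at of Hmgcs1 read 0.14 and 0.07, and 1417303_at of Mvd read -0.27.

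In the sterol pathway the differences of smallest p were those of Msmo1 and Lss, both towards higher values with TP. Msmo1, the sterol C4-methyl oxidase, measured 10.34 and 10.47 in female vehicle, 10.53 and 10.58 in female TP, 10.26 in male vehicle and 10.41 in male TP. Within each sex every TP array was above every vehicle array, and the difference over both sexes was 0.14 (SE 0.07, 1.11-fold, adjusted p = 0.432). The other Msmo1 probe set, 1459627_at with a mean of 5.30, read -0.06, and the mean over both probe sets gave 0.04. Lss, which closes the ring to form lanosterol, measured 8.82 and 8.91 in female vehicle, 9.01 and 8.94 in female TP, 8.78 in male vehicle and 8.93 in male TP. On the brightest probe sets it was the only enzyme whose 3 TP arrays all lay above its 3 vehicle arrays, at 0.12 (SE 0.06, adjusted p = 0.485). The other probe sets of Lss, 1420013_s_at and 1420014_at, read 0.03 and 0.02 with overlapping arrays.

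Dhcr7, which catalyses a final reduction to cholesterol, went the other way through a single array: 9.06 and 9.13 in female vehicle, 8.97 and 9.14 in female TP, 9.09 in male vehicle and 8.76 in male TP. The female arrays overlapped and only the male TP array stood below the rest. Its TP difference was -0.14 over both sexes and -0.04 in females alone, which leaves out that array. Ebp, the sterol isomerase, had -0.11, and Fdft1, the squalene synthase, -0.08. The remaining sterol enzymes, Sqle (squalene epoxidase), Cyp51 (lanosterol demethylase), Tm7sf2 (C14 reductase), Nsdhl and Hsd17b7 (both of C4 demethylation) and Sc5d (C5 desaturase), lay between -0.05 and 0.02.

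The regulators of smallest p were the SREBP genes themselves, both at lower values with TP but in different arrays. Srebf1, which encodes SREBP-1, measured 8.37 and 8.34 in female vehicle, 8.27 and 8.31 in female TP, 8.34 in male vehicle and 8.04 in male TP. The 3 TP arrays lay below the 3 vehicle arrays, and most of the difference of -0.14 (SE 0.07, adjusted p = 0.471) came from the male TP array: in females it was -0.06. Srebf2, which encodes SREBP-2, the main driver of the sterol genes, measured 8.12 and 8.23 in female vehicle, 8.01 and 7.996 in female TP, 8.10 in male vehicle and 8.08 in male TP. Here the groups did not overlap either, but the male pair differed by only -0.02 and the females by -0.17 (difference over both sexes -0.12, SE 0.07, adjusted p = 0.518). Scap was at -0.08, Insig1 at 0.01 and Insig2 at 0.05.

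Among the transport genes, Stard4, a carrier that moves cholesterol between membranes, measured 8.73 and 8.70 in female vehicle, 8.82 and 8.76 in female TP, 8.69 in male vehicle and 8.75 in male TP. All TP arrays were above all vehicle arrays, by a mean of only 0.07 (SE 0.06, adjusted p = 0.692). Another of its probe sets, 1455011_at, lay the other way without overlap, at -0.10. Npc1, which exports cholesterol from lysosomes, measured 7.01 and 7.10 in female vehicle, 7.08 and 7.06 in female TP, 7.12 in male vehicle and 7.03 in male TP, with overlapping groups and a difference of -0.02. Abca1, which loads cholesterol onto lipoproteins, had a TP difference of 0.01.

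All 4 fatty acid genes lay close to 0. Acaca, the acetyl-CoA carboxylase, measured 9.05 and 9.07 in female vehicle, 9.02 and 9.05 in female TP, 9.07 in male vehicle and 9.03 in male TP. The 3 TP arrays lay just below the 3 vehicle arrays, at -0.03 (SE 0.06, adjusted p = 0.869), while a dim probe set of the gene read 0.26. Scd1, a stearoyl-CoA desaturase, measured 9.59 and 9.66 in female vehicle, 9.51 and 9.62 in female TP, 9.60 in male vehicle and 9.60 in male TP. These groups overlapped, with a difference of -0.04. Fasn, the fatty acid synthase, was at -0.02 and Scd2, the main desaturase of brain, at 0.02.

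Taking the brightest probe set of each gene, the intervals show how large a TP difference the spread between these arrays could have hidden. That spread may be technical, so they do not bound a difference between mice. Over both sexes the 95% intervals of the 29 genes ran from -0.34 to 0.30 at their outermost, which is 1.26-fold lower to 1.23-fold higher, and all 29 held 0. They are not adjusted for the number of genes. In females alone they ran from -0.37 to 0.35. Other probe sets of some genes reached further. Over both sexes, the intervals of 4 of the 62 probe sets lay wholly above 0 and of 3 wholly below. These are the probe sets counted above at an unadjusted p under 0.05. Examples are 0.13 to 0.70 for 1423804_a_at of Idi1 and -0.47 to -0.07 for 1417303_at of Mvd.

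In the females, the only sex with more than 1 array per treatment, 0 of 62 probe sets passed the threshold (0.0111% of all probe sets did), and 2 were higher and 1 lower at an unadjusted p under 0.05, against 4% and 4.13% of all probe sets. The TP arrays lay above the vehicle arrays without overlap in 4 of 29 genes and below in 5, against 13.4% and 24.7% of all genes. Males had 1 array per treatment and their TP difference was not tested on its own. There, 3 of the 62 probe sets were over 1.2-fold higher with TP and 5 over 1.2-fold lower, against 7.76% and 8.09% of all probe sets. At gene level 2 of 29 were past 1.2-fold, against 11.9% of all genes: Dhcr7 at -0.33 (1.26-fold lower) and Srebf1 at -0.31 (1.24-fold lower), both through the array on which Xist went against the label. The test of whether the TP difference itself differed between females and males called 0 of 62 probe sets (0.0155% of all probe sets), with 3 higher and 0 lower in females at an unadjusted p under 0.05, against 2.48% and 2.45%.

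**Figure D2:**
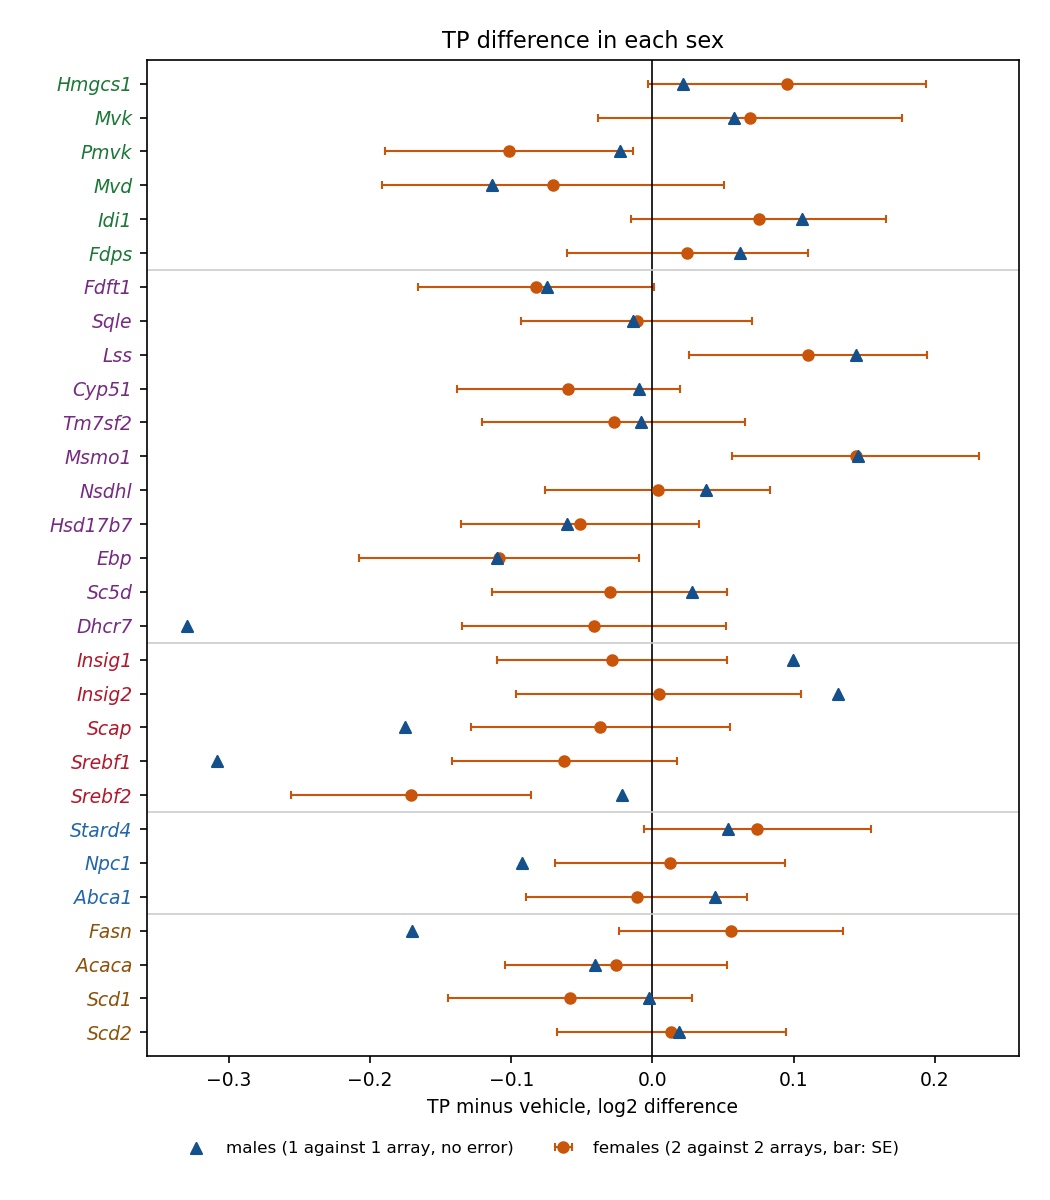
TP minus vehicle on the log2 scale for each gene, with females as circles (2 against 2 arrays, bars show the SE of the limma fit) and males as triangles (1 against 1, no error). Msmo1 lies at 0.14 in females and 0.15 in males, while Dhcr7 and Srebf1 lie below -0.3 in males and near 0 in females.

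The female and male comparisons share no array, so the sign of each enzyme could be set side by side. All male differences rest on the male TP array, whose Xist went against its label, and cannot be given without it. On the brightest probe sets, 16 of 17 enzymes had a TP difference of the same sign in both sexes, Sc5d being the exception. The share was 62.6% among all genes and 66.4% among genes at least as bright as the dimmest member. Hmgcs1, Mvk, Idi1, Fdps, Lss, Msmo1 and Nsdhl were positive in both sexes. The other 9, Pmvk, Mvd, Fdft1, Sqle, Cyp51, Tm7sf2, Hsd17b7, Ebp and Dhcr7, were negative in both. The 12 members that are not enzymes had the same sign in 8. Agreement among the enzymes depended on the probe set. Another probe set of each of Hmgcs1, Fdps (a dim one), Lss, Cyp51, Hsd17b7 and Sc5d had opposite signs in females and males. The enzymes' remaining probe sets had the same sign in both. The genes are not independent, most of these differences were under 0.1 in size, and no test was run on the count.

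The spread between the original and replica arrays was of the same size as the TP differences. The median size of the TP difference in females was 0.07 over the 17 enzymes. The median size of the difference between replica and original was 0.08 for vehicle and 0.09 for TP. For vehicle the replica was higher than the original in 11 of 17 enzymes (64.7%), beside 64.3% of genes at least as bright as the dimmest member. For TP it was higher in 15 of 17 (88.2%), beside 60.7% of those genes. The medians over the enzymes were 0.08 and 0.09. For Hmgcs1 the replica exceeded the original by 0.14 in vehicle and 0.17 in TP, while TP exceeded vehicle by 0.10.

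Summed levels of 3 marker lists did not overlap between the TP and vehicle arrays. The 9 oligodendrocyte and myelin markers all had a negative TP difference over both sexes, with a median of -0.09. Of all genes, 62.1% were negative there. Their summed log2 level ran from 81.8 to 82.6 on the vehicle arrays and from 79.7 to 81.6 on the TP arrays. The lowest sum was that of the male TP array, on which Mobp was at 7.70 against 8.49 in male vehicle. In females the median over the same 9 markers was -0.002. The 8 endothelial markers summed to between 61.5 and 61.7 with vehicle and between 60.2 and 61.1 with TP. No marker of these lists passed the test, the smallest adjusted p for TP over both sexes being 0.238 for the oligodendrocyte list and 0.282 for the endothelial list. The 6 skin and hair markers, 4 of them dim, summed to between 27.3 and 30.3 with vehicle and between 25.9 and 26.4 with TP, with a median TP difference of -0.49 over both sexes. In females the median was -0.69, with 6 of 6 negative, where 59.2% of all genes were. Of the 6, 1, the hair keratin-associated Krtap19-5, passed the test (adjusted p = 0.0482). The part of any of these lists in the TP differences of Dhcr7, Srebf1 or any other member was not tested.

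Male brains had lower values than female brains in 16 of the 17 enzymes, but no gene passed the test. Of the 62 probe sets, 0 had an adjusted p under 0.05, where 0.0222% of all probe sets passed, and 1 higher and 4 lower had an unadjusted p under 0.05, against 6.36% and 5.72% of all probe sets. The medians were -0.17 for the mevalonate genes (6 of 6 negative), -0.07 for the sterol genes (10 of 11), -0.12 for the regulators (5 of 5), 0.01 for transport and -0.01 for fatty acid synthesis. Over the 17 enzymes the median was -0.08, beside -0.02 over all genes and -0.05 over genes at least as bright as the dimmest member, of which 73.8% were negative. With the values quantile normalized again the enzymes' median was -0.04 and 12 of 17 were negative. Without the male TP array it was -0.08, with 16 negative. With the original or replica number in the model, the male arrays counting as originals, the median was -0.07, with 13 negative.

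Idi1, whose array values are given with the TP results, was 0.19 lower in the male arrays once treatment was taken into account (difference -0.19, SE 0.07, adjusted p = 0.375). Both male arrays lay below all 4 female arrays. Fdps, which joins isoprenoid units into farnesyl pyrophosphate, measured 11.47 and 11.54 in female vehicle, 11.48 and 11.58 in female TP, 11.32 in male vehicle and 11.38 in male TP. Again the male arrays lay below every female array, by 0.17 (difference -0.17, SE 0.07, adjusted p = 0.397).

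Hmgcs1 measured 12.98 and 13.11 in female vehicle, 13.06 and 13.22 in female TP, 12.92 in male vehicle and 12.94 in male TP, so its male arrays were the lowest of the 6. Its difference was -0.16 (SE 0.08, adjusted p = 0.459). The gene's other probe sets differed among themselves. Of these, 1433446_at read 0.17 with both male arrays above every female array, 1433444_at read 0.09 and 1433445_x_at read -0.001. The dimmest, 1441536_at with a mean of 5.20, read -0.42 with both male arrays below every female array. The mean over the probe sets of Hmgcs1 was -0.06. For Mvd the other probe set read 0.07, and for Fdps a dim probe set read 0.16. On their brightest probe sets Mvd, at -0.22, and Sqle, at -0.10, also had both male arrays below every female array, whereas Mvk and Pmvk overlapped between the sexes. Msmo1 and Dhcr7, the sterol enzymes of smallest p, differed by -0.15 each with overlapping arrays, and the value for Dhcr7 without the male TP array was -0.01. Sc5d was the enzyme with a positive value, 0.05.

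Among the regulators, Insig1, which retains the SREBP complex and is itself an SREBP target, measured 9.26 and 9.30 in female vehicle, 9.29 and 9.21 in female TP, 9.05 in male vehicle and 9.15 in male TP. Both male arrays lay below all female arrays, with a difference of -0.16 (SE 0.07, adjusted p = 0.410) and of -0.23 without the male TP array. Srebf1 differed by -0.13 with all arrays and by -0.01 without the male TP array. Srebf2 was at -0.001, Insig2 at -0.12 and Scap at -0.09.

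Of the 5 members with a positive sex difference, Abca1 was the one whose male arrays both lay above all female arrays. It measured 10.31 and 10.30 in female vehicle, 10.31 and 10.28 in female TP, 10.44 in male vehicle and 10.49 in male TP. The 4 female arrays lay within 0.03 of each other and below both male arrays, and the difference was 0.17 (SE 0.06, adjusted p = 0.381). Stard4 had a sex difference of -0.03. Fasn, at 10.56 and 10.51 in female vehicle, 10.59 and 10.58 in female TP, 10.60 in male vehicle and 10.43 in male TP, was low only on the male TP array, and its difference of -0.04 turned to 0.07 without that array. Scd2 was at -0.03, with values between 12.96 and 13.04 on all 6 arrays.

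**Figure D3:**
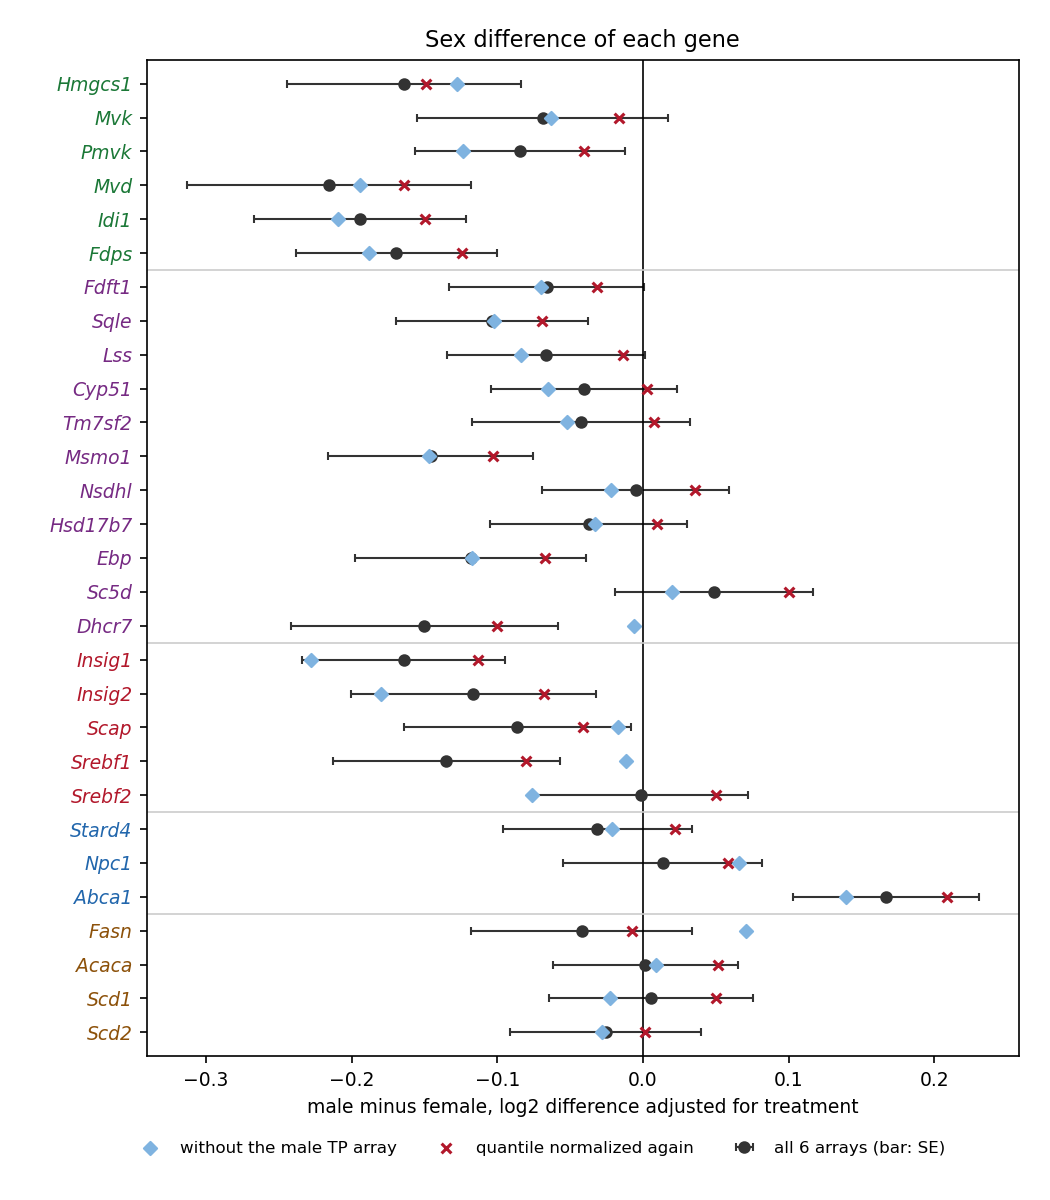
Male minus female on the log2 scale, adjusted for treatment, for each gene over all 6 arrays (circles, bars show the SE of the limma fit), without the male TP array (diamonds) and after a further quantile normalization (crosses). Of 17 enzymes, 16 lie below 0 with all arrays and 12 after the normalization, and Dhcr7 and Srebf1 move to -0.01 without the male TP array.

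At gene level, 6 of 29 members had both male arrays below all female arrays and 1 had them above, against 15.1% and 7.04% of all genes. Of genes at least as bright as the dimmest member, 2084 of 9061 were lower in this way, a share close to that of the members. The 95% intervals ran from -0.44 to 0.32, and 4 of 29, not adjusted for the number of genes, did not hold 0: Idi1, Fdps and Insig1 below it and Abca1 above. All 7 markers of cycling progenitors had a negative male minus female difference (7 of 7), with a median of -0.28 and a summed log2 level of 61.1 to 61.6 in females and 59.2 to 59.7 in males. Of all genes, 58.5% were negative in this comparison. Neutrophil markers were higher in 7 of 8, summing to between 35.6 and 36.8 in females and between 37.3 and 39.6 in males. Of these 8, 4 were dim, and their highest mean was 5.54. Astrocyte markers were negative in 7 of 8, with a median of -0.06. They summed to between 83.42 and 83.80 in females and between 83.05 and 83.41 in males. The 5 adipocyte markers, 3 of them dim, were higher in males in 3. Their sums ran from 22.7 to 23.4 in females and from 23.5 to 23.6 in males. The part of any of these lists in the members' sex differences was not tested.

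Several members were read by more than 1 probe set, and these did not always give the same answer. Of 19 such genes, another probe set had the opposite sign in 9 for TP over both sexes and in 14 for sex. Among probe sets above the dim level the counts were 5 and 10.

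Idi1 was such a gene by size rather than sign. Its probe set 1423804_a_at measured 8.77 and 9.16 in female vehicle, 9.24 and 9.27 in female TP, 8.59 in male vehicle and 9.26 in male TP. All TP arrays lay above all vehicle arrays, with a difference of 0.41 (SE 0.12, 1.33-fold, adjusted p = 0.291). The brighter probe set 1451122_at gave 0.09. In males the dimmer probe set differed by 0.67, the only member probe set past 1.5-fold there, where 1.05% of all probe sets were. Mvd likewise read -0.27 with 1417303_at and -0.08 with its brighter probe set. Sc5d read 0.24 with 1424709_at, which had the smallest adjusted p of any member probe set for TP over both sexes, 0.274, and -0.01 with its brighter probe set. Hmgcs1 differed between the sexes on 1441536_at, at 0.45 with TP in females and -0.23 in males (unadjusted p = 0.004, adjusted p = 1.00), while its brightest probe set gave 0.10 and 0.02.

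**Figure D4:**
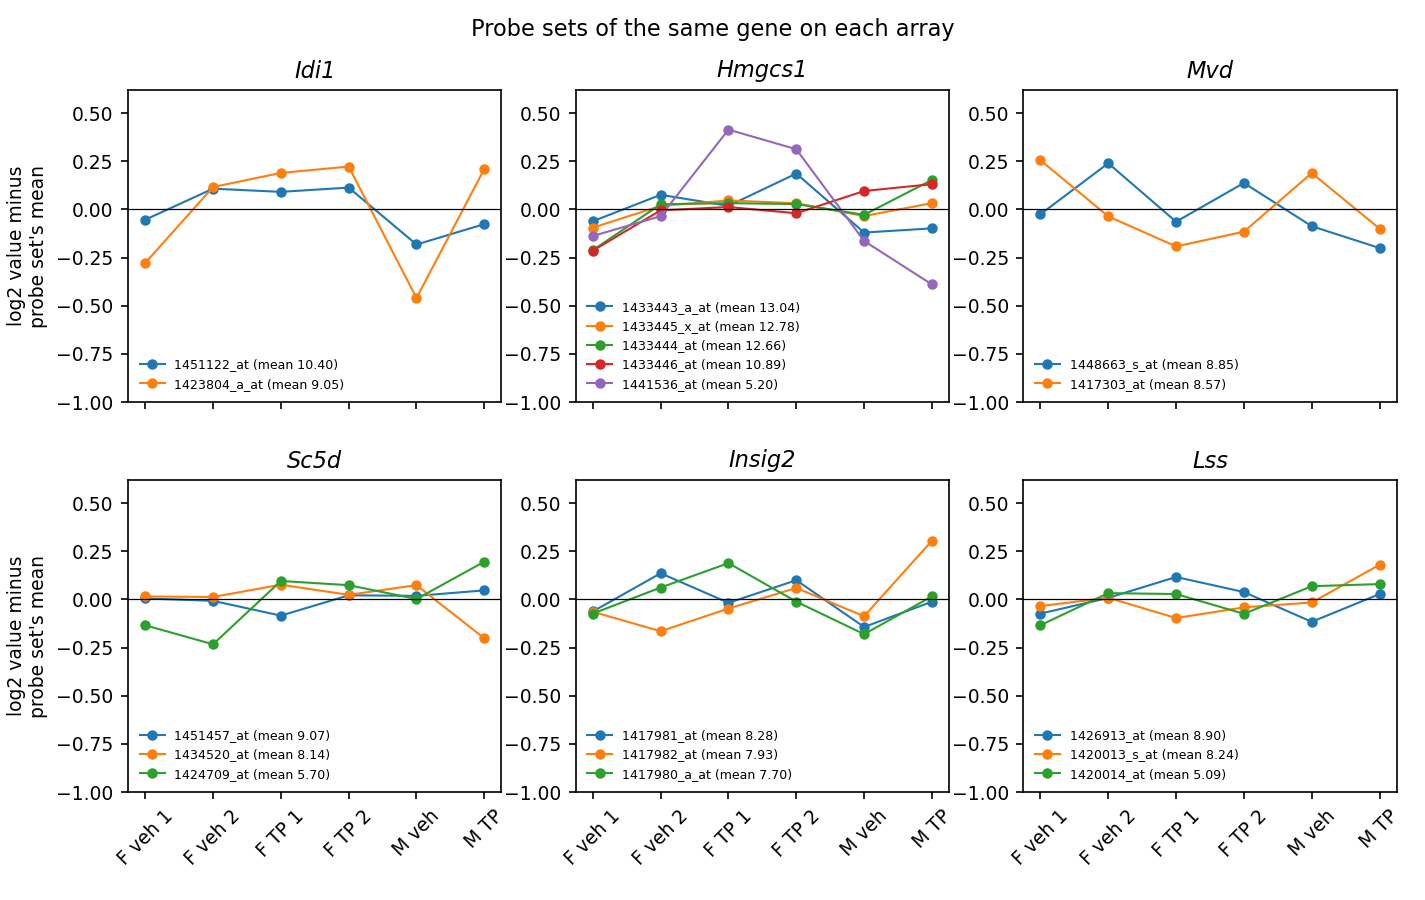
Log2 values of every single-gene probe set of Idi1, Hmgcs1, Mvd, Sc5d, Insig2 and Lss on each array. These genes were chosen from those with several probe sets. Values are shown as the difference from the probe set's mean over all arrays, with lines joining the values of a probe set. For Idi1 the dimmer probe set 1423804_a_at departs by more than the brighter 1451122_at, with TP differences of 0.41 and 0.09.

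Neighbouring steps of lipid metabolism were read from 4 further lists, and none of their genes passed the test in any comparison. Of the isoprenoid branch, which makes dolichol, ubiquinone and prenyl groups from farnesyl pyrophosphate, 10 of 11 genes were measured, with a median TP difference over both sexes of 0.01. Pdss2, which builds the ubiquinone tail, had the smallest p at 8.84 and 8.86 in female vehicle, 8.67 and 8.63 in female TP, 8.77 in male vehicle and 8.62 in male TP. Its TP arrays all lay below its vehicle arrays, at -0.18 (SE 0.06, adjusted p = 0.325). Fntb, a farnesyltransferase subunit, was at -0.12.
Between the sexes, the lowest p of this list belonged to Coq2 and Dhdds, at -0.22 each.

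Of SREBP processing and sterol sensing, 7 of 11 genes were measured. Of these, 6 had a negative TP difference, with a median of -0.06, where 62.1% of all genes were negative. Mbtps1, the first protease that cuts SREBPs, was at -0.12 and Erlin1 at -0.09. Erlin2 and Mbtps1 had the sex differences of smallest p, -0.16 and -0.14. In females alone Nr1h3, the liver X receptor alpha, had the smallest p of this list.

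All 15 genes of sterol transport and breakdown were measured, with a median TP difference of -0.03. Npc2, which hands cholesterol to NPC1 in lysosomes, measured 11.28 and 11.28 in female vehicle, 10.98 and 11.14 in female TP, 11.27 in male vehicle and 11.11 in male TP. The TP arrays all lay below the vehicle arrays, at -0.20 (adjusted p = 0.345). Ch25h, the cholesterol 25-hydroxylase, had -0.20 on a dim probe set. The sex differences of smallest p were those of Lcat, at -0.15, and Lipa, at -0.13.

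The list of fatty acid and glycerolipid genes had 18 of 18 measured, with a median TP difference of -0.03. Elovl7, a fatty acid elongase, was at 0.15 and Acacb, the mitochondrial acetyl-CoA carboxylase, at -0.14. In females alone Acacb and Agpat1 had the smallest p. Acacb had a sex difference of 0.24 and Thrsp one of -0.23.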

How the data were processed

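Expression of the whole brain was read on 6 Affymetrix arrays. The deposited log2 values were made by the authors with RMA (background correction, normalization between arrays, summary of probes), per the submitters' processing notes, with no version given in the sources used here. Probe sets were named through GEO's platform annotation, checked against RefSeq for GRCm38.p6. Precision is limited by the number of arrays, since the values carry no read or signal counts.

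The test was limma's lmFit with eBayes (limma 3.58.1, R 4.3.3, two-sided) on 45037 probe sets without array controls, with Benjamini-Hochberg adjustment over all of them and a threshold of 0.05. TP over both sexes and sex came from an additive model of both factors on 6 arrays, TP in females from 4 arrays, and the difference between the sexes' TP effects from a 4-group model that assumes the single male arrays vary like the female ones. Males, 1 array each, were not tested, and 1.2-fold was counted. Each gene was represented by the single-gene probe set with the highest mean. Array values were printed for the 2 genes of smallest p in each role group, for TP and for sex, and names were given to the 2 of smallest p in each further list; single probe sets and Hmgcs1, Mvd, Sqle, Ebp, Fdft1, Mobp and Krtap19-5 were described after their values were seen. The members and lists were chosen with earlier results of these data known. The fit was tested on simulated data. Motif counts and figures used Python 3.11.15. Other settings are named in the closing section.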

Additional observations from a re-analysis of the deposited data

How the results depend on the processing

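In each of the 4 tested comparisons, 0 of 62 member probe sets passed the threshold after quantile normalization again or centring each array. The count was also 0 of 62 with an intensity trend and on leaving out each female array. It was 0 of 54 where dim probe sets were left out, and 0 of 29 genes where the probe sets of a gene were averaged or reduced to 1. The original or replica number as a replicate block also gave 0 of 62. That block moved the enzymes' median for sex to -0.066, with 13 of 17 negative. Same-numbered female arrays deviated together with a correlation of 0.11 over all probe sets, but there are only 2 pairs and the labels tie the numbers to no shared litter. Over all probe sets the intensity trend called 138 for TP over both sexes, 37 in females, 49 for sex and 12 for the difference between the sexes, in place of 4, 5, 10 and 7. In males the 8 member probe sets past 1.2-fold became 1 with 1.5-fold and 3 of 29 genes when probe sets were averaged. Leaving out each female array in turn, the enzymes' median ran from -0.036 to 0.025 for TP over both sexes, from -0.053 to 0.032 in females and from -0.110 to -0.080 for sex. The number of arrays limits the precision: on the brightest probe sets, the members' 95% intervals reached 1.26-fold over both sexes and 1.30-fold in females.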
